A study of Mus musculus and Homo sapiens with 34 samples.

Results

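The alveolar type 1 (AT1) cell markers examined here are 9 genes, Ager, Hopx, Pdpn, Rtkn2, Clic5, Cav1, Aqp5, Vegfa and Akap5, out of 48431 distinct gene IDs of mouse and human listed over 7 count tables. They were chosen by symbol, in capitals for the human tables, and the rows of a table were matched by name alone. All 9 were listed in the 1027B, 3311 and 2-week 3154 tables, 8 in the 48-hour 3154, H358 and H1651 trametinib tables, and 7 in the H1651 doxycycline table. Of these, Pdpn in 3311 (0 to 5 counts per library) and AQP5 in both human trametinib tables (0 to 5 counts) did not pass the filter on low counts and were not tested.

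AT1 cells are the thin, flat cells that cover most of the gas-exchange surface of the lung. During repair they can arise from cuboidal, surfactant-making alveolar type 2 (AT2) cells. Ager encodes the receptor RAGE on the basal membrane of AT1 cells, Aqp5 a water channel, Pdpn a mucin-type surface glycoprotein and Cav1 the coat protein of caveolae. Hopx is a homeodomain protein that does not bind DNA itself, Clic5 a protein that ties membranes to the actin skeleton, and Akap5 a scaffold that anchors protein kinase A. Vegfa is the secreted growth factor by which AT1 cells signal to capillary endothelium, and in many cells its transcription responds to low oxygen.

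RNA had been sequenced from 34 libraries in 17 groups of 2, 22 of them from mouse lung tumour organoids or cells and 12 from lung adenocarcinoma lines of human origin. Every mouse culture carried a p53 allele under Flp control and a tamoxifen-dependent Cre (p53frt, Rosa-FSF-CreERT2). The 3154 organoids also carried Hnf4aflox, so that 4-hydroxytamoxifen (4OHT) deletes Hnf4a, the gene of a nuclear receptor of gut and liver identity. In 1 experiment they received ethanol or 4OHT (2 mM as labelled) and were collected 2 weeks later. In another they received ethanol or 4OHT, each without or with 3 nM MRTX1133, a small-molecule inhibitor, in an experiment labelled as 48 h. The 1027B organoids and the 3311 cell line carried Foxa1flox and Foxa2flox instead, and no treatment that deletes these was named for the groups used here. The 1027B organoids received vehicle, 10 nM trametinib (an inhibitor of the kinases MEK1 and MEK2) or 20 nM MRTX1133 for 48 h, and 3311 received vehicle or 50 nM trametinib for 48 h. Trametinib at 20 nM, or vehicle, was given to the human lines H358 and H1651 for 48 h, and H1651 with a lentiviral HNF4A construct was kept 7 days without or with 1 µg/mL doxycycline. Organoids were grown in L-WRN conditioned medium. Each mouse culture is known here by 1 line name, so differences between cultures are differences between single lines.

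Total counts ran from 19692517 to 45284286 per library. Values are counts scaled by library size and TMM factors to CPM, as edgeR defines it, and each table was scaled separately. The labels do not say that replicates were separate cultures, so the p-values measure the spread between these libraries, which may be technical. With 2 libraries against 2 no exact permutation test can reach p = 0.05. Whether library ranges overlap is given below as a description only. Ranges of 2 libraries can separate without a change, and the share of all genes without overlap was not computed. All adjusted p-values are Benjamini-Hochberg values of edgeR's quasi-likelihood test over all genes of a table, and a gene was called at an adjusted p under 0.05. Hnf4a itself was at 221 and 230 CPM in the 2 ethanol libraries and 49.4 and 50.4 CPM in the 2 4OHT libraries of the 48-hour experiment, and at 315 and 427 against 53.5 and 68.0 CPM in the 2-week experiment. These counts cover the whole gene and not only the deleted part. A summed level of 5 epithelial genes lay between 2610 and 8820 CPM in all libraries. In bulk RNA fewer cells of a type and less RNA per cell cannot be told apart.

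All 9 mouse members were placed on GRCm38 with GENCODE M21. Ager lies at chr17:34597862-34600936 on the plus strand, Clic5 at chr17:44188584-44280172 (plus), Vegfa at chr17:46016993-46032369 (minus), Hopx at chr5:77086988-77115121 (minus) and Pdpn at chr4:143267431-143299564 (minus). Rtkn2 lies at chr10:67979570-68059740, Cav1 at chr6:17306335-17341452, Aqp5 at chr15:99590782-99594829 and Akap5 at chr12:76324891-76334153, all on the plus strand. The antisense gene Hopxos covers 27.2% of the exon bases of Hopx, and Gm16212 covers 3.9% of those of Rtkn2. The strand setting of the counting is not given in the sources used here, so reads of these partners may be included.

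RefSeq (GRCm38.p6) gave promoter entries for 8 of the 9 members, 11 entries in all, and Rtkn2 had no entry. The 250 bases upstream of the start are shown for Ager, Hopx, Clic5 and Akap5, the members that were called higher in both trametinib-treated mouse cultures, so that genes moving together can be compared. They are Ager at chr17:34597600-34597849 (plus), Hopx at chr5:77115124-77115373 (minus), Clic5 at chr17:44188322-44188571 (plus) and Akap5 at chr12:76324641-76324890 (plus), each written 5′ to 3′ along the gene. The capitals mark the single match in these 4 windows, ACGTG (the core of the hypoxia response element), found 17 bases upstream of the Hopx start.
Ager: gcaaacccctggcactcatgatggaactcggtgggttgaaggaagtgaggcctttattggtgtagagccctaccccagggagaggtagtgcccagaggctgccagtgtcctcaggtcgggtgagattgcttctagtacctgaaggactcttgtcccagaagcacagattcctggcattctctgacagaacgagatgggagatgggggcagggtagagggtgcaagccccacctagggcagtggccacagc
Hopx: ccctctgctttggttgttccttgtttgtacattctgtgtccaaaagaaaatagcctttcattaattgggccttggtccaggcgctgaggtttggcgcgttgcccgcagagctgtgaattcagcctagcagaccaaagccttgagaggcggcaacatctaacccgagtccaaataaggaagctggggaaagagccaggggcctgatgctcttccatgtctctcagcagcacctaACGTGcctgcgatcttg
Clic5: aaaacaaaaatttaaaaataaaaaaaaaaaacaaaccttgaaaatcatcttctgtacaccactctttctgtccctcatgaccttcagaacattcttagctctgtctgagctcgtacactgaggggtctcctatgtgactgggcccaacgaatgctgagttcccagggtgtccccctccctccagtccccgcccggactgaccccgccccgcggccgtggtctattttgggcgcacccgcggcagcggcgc
Akap5: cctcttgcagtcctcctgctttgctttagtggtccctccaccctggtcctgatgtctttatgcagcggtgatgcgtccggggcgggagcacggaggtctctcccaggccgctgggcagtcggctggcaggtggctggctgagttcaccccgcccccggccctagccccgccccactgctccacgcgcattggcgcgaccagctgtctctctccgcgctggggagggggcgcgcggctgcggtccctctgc

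Motifs were searched on both strands in these windows of all 11 entries. No window held CAAAGTCCA (HNF4, present in 0.4% of 32851 promoters), GGAATG (TEAD, 12.6%), TGANTCA (AP-1, 6.7%), CCGGAA (ETS, 12%) or CACTTGA (NKX2-1, 2.7%). CAAAGT, which is contained in the long HNF4 motif, is present in 12.6% of all promoters and stood 124 bases upstream of a second Hopx start and 114 bases upstream of Pdpn. TGTTTAC (FOXA, 3.2%) stood 153 bases upstream of Pdpn. ACGTG, or CACGT as it reads on the other strand, is present in 16.6% of all promoters and stood in 6 of the 11 windows. Besides the first Hopx start, these were Pdpn (143 and 144 bases upstream), the second Hopx start (85, 86 and 232), Cav1 (68), Aqp5 (86, 87 and 175) and 1 of the Vegfa starts (211), where neighbouring positions are the same palindromic stretch read on both strands. A match is a description of letters only.

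Across the 11 comparisons with a matching vehicle there were 88 tests of a member. Of these, 34 (38.6%) were called higher and 8 (9.09%) lower, where over the same comparisons 8.77% of 175258 tests of all genes were called higher and 8.98% lower. The share called among all genes ran from 0% to 46.8% between comparisons and is given with each below. Hopx and Rtkn2 rose most often, each in 7 of 11 comparisons, and Ager and Akap5 rose in 6 of 11. Clic5 and Cav1 rose in 3 of 11 each. Rtkn2 also fell in 2 comparisons. Aqp5 rose in 2 and fell in 2 of 8, Vegfa fell in 4 of 11 and rose in 0, and Pdpn was called in 0 of 3. These counts are without a replicate block. With the block in 1027B, where replicate numbers were taken as pairs, 8 of 9 members were called for each drug, against 6 with trametinib and 3 with MRTX1133. The share of all genes called was then 44.9% with trametinib and 24.1% with MRTX1133, against 26.7% and 6.27% without the block. Pdpn and Cav1 were then called higher with both drugs, and Ager, Clic5 and Hopx also with MRTX1133.

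**Figure D1:**
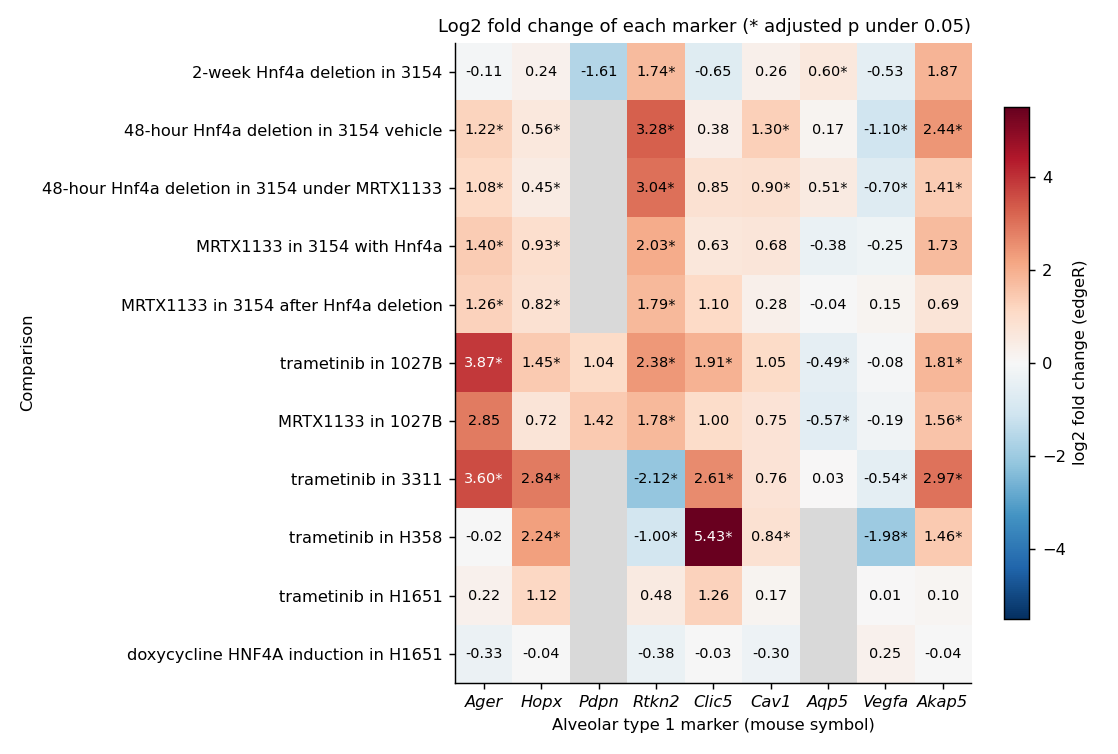
Log2 change of each member (columns) in each comparison with its vehicle (rows). Red is higher and blue lower in the treated group, a star marks an adjusted p under 0.05 and grey marks genes not tested. Ager, Hopx, Rtkn2, Clic5 and Akap5 are mostly red in the mouse comparisons, Vegfa is called only as lower, and the H1651 rows hold no star.

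The markers stood at very different levels before any treatment. Per kilobase of exon, the vehicle 3154 organoids of the 48-hour experiment held Aqp5 at 281 CPM per kb, Ager at 166 ± 25.1 (SD, n = 2), Vegfa at 162 ± 39.7 and Hopx at 130 CPM per kb. Clic5 stood at 31.3, Cav1 at 12.2, Akap5 at 10.9 and Rtkn2 at 0.201 CPM per kb. The library ranges of Ager and Vegfa overlapped, as did those of Cav1 and Akap5. In organoids given 4OHT and MRTX1133 the order per kilobase was Ager (931 CPM per kb), Hopx (339), Aqp5 (308), Akap5 (96.2), Clic5 (86.9), Vegfa (83.9), Cav1 (36.5) and Rtkn2 (6.77). Akap5, Clic5 and Vegfa had overlapping library ranges there. In 1027B vehicle organoids Aqp5 (428 CPM per kb) and Vegfa (218) led, with Ager at 32.9 and Pdpn at 1.04 CPM per kb. In 3311 vehicle cells Vegfa led at 181 CPM per kb, while Aqp5 was at 1.54, Hopx at 0.317 and Akap5 at 0.0245 CPM per kb.

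Across the 11 mouse groups the mean of Ager ran from 14.7 CPM (3311 vehicle) to 1990 CPM (3154 with 4OHT and MRTX1133), and 4 of the 10 steps between neighbours in that order had overlapping library ranges. The mean of Akap5 ran from 0.167 to 657 CPM with 0 of 10 overlapping neighbours, and that of Hopx from 0.481 to 513 CPM with 1 of 10. Rtkn2 ran from 1.11 to 38.5 CPM (3 of 10 overlapping), Clic5 from 68.4 to 1010 CPM (5 of 10) and Cav1 from 16.3 to 178 CPM (6 of 10). Aqp5 ran from 4.0 to 1110 CPM (7 of 10) and Vegfa from 324 to 936 CPM (8 of 10). Pdpn, listed for 7 groups, stayed between 0.0199 and 5.1 CPM. These orders cross tables that were scaled separately and are descriptive.

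Deletion of Hnf4a in the 3154 organoids of the 48-hour experiment, without MRTX1133, was accompanied by higher Ager, Akap5, Cav1, Hopx and Rtkn2 and by lower Vegfa. Of the 8 members tested, 5 rose and 1 fell. The share called among all 15458 genes tested was 31%, with 15.3% higher and 15.7% lower. The median change of the members was 0.89 and that of all genes 0.01 on the log2 scale.

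Among the surface proteins, Ager was at 318 and 394 CPM in the ethanol libraries and at 824 and 842 CPM in the 4OHT libraries. Both deleted libraries lay above both controls, and the log2 change was 1.22 (SE 0.14, adjusted p = 0.000997). Cav1 was at 51.6 and 32.6 CPM against 100.1 and 106.8 CPM, again without overlap (log2 change 1.30, SE 0.26, adjusted p = 0.00815). The water channel Aqp5 was at 749 and 714 CPM in ethanol and 795 and 855 CPM in 4OHT. Its ranges did not overlap, but its log2 change of 0.17 (SE 0.12, adjusted p = 0.288) did not pass the test.

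Among the intracellular members, Rtkn2 was at 1.30 and 0.923 CPM with ethanol and at 10.7 and 10.9 CPM with 4OHT. This was the largest of the members' changes here, at 3.28 on the log2 scale (SE 0.29, adjusted p = 0.000379), from a low level. Akap5 was at 92.5 and 56.7 CPM against 408 and 403 CPM, a log2 change of 2.44 (SE 0.29, adjusted p = 0.00104). Hopx was at 192 and 202 CPM against 285 and 297 CPM, a log2 change of 0.56 (SE 0.12, adjusted p = 0.011). Clic5, at 349 and 200 CPM against 362 and 353 CPM, was not called (log2 change 0.38, SE 0.28, adjusted p = 0.346). Its ethanol libraries stood far apart, and without ethanol replicate 1 its change was 0.83 (adjusted p = 0.0391).

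Of 4 mesothelial genes 3 were listed, with a sum of 187 to 205 CPM in ethanol and 322 to 366 CPM in 4OHT, nearly all of it Msln, and 2 of 3, Lrrn4 (1.85) and Msln (0.80), were called higher. All 4 basal cell genes were listed, with a sum of 6.29 to 7.07 CPM in ethanol and 13.9 to 15.8 CPM in 4OHT, and 2 of 3 tested, Krt14 (1.19) and Ngfr, were called higher. The part of either list in these results was not tested. The secreted factor Vegfa went the other way. It was at 815 and 574 CPM in the ethanol libraries and at 323 and 326 CPM in the 4OHT libraries, all below the controls (log2 change -1.10, SE 0.21, adjusted p = 0.00611). All 9 other hypoxia-responsive genes tested were also called lower (median log2 change -1.12), among them Adm at -4.30, and their part in the result for Vegfa was not tested. Without 4OHT replicate 2, Cav1 (1.25, adjusted p = 0.0565), Hopx (0.53, 0.0974) and Vegfa (-1.11, 0.0535) were no longer called, and without 4OHT replicate 1, Hopx (0.59, 0.0699) and Vegfa (-1.10, 0.0509) were not.

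**Figure D2:**
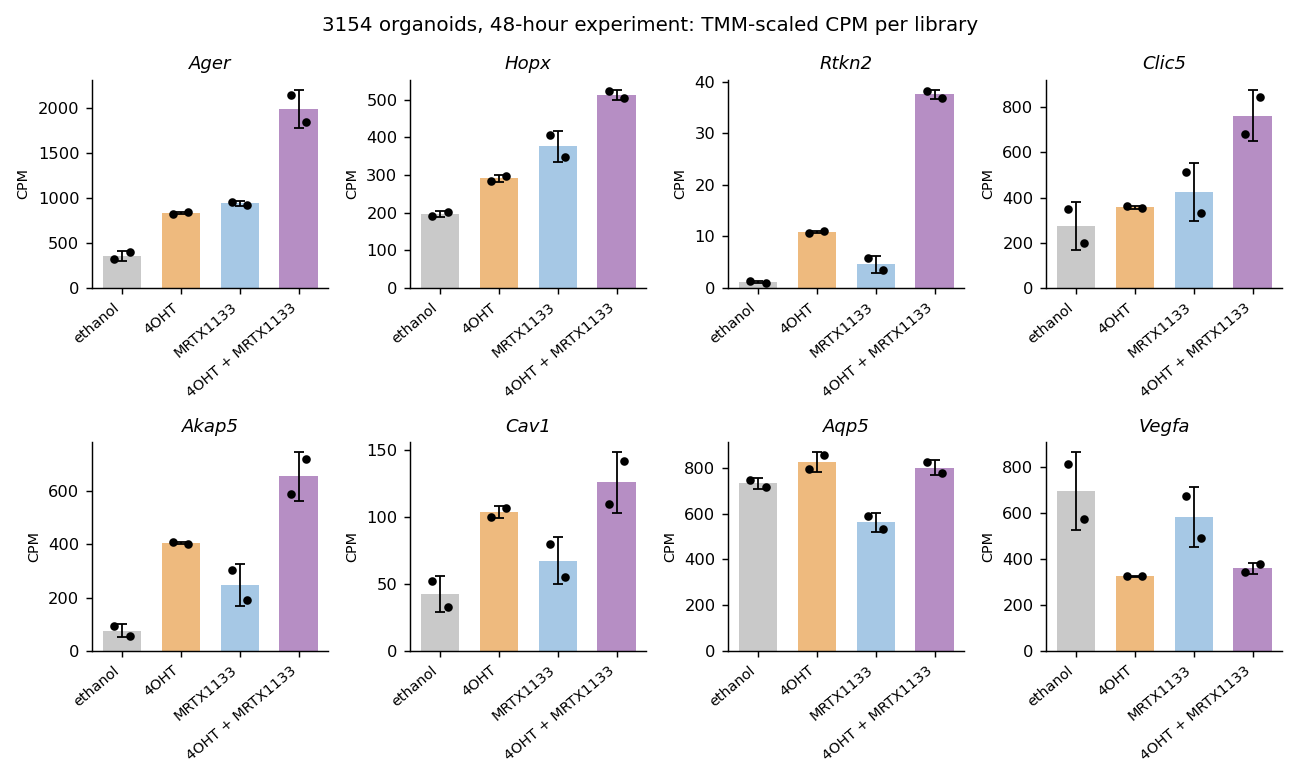
CPM of 8 members in the 4 groups of the 48-hour 3154 experiment; bars are means, error bars the SD of n = 2 libraries and points the libraries. Ager rises from 318 and 394 CPM in the ethanol libraries to 2144 and 1841 CPM with 4OHT and MRTX1133, and Vegfa is lower in both 4OHT groups.

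The same deletion under MRTX1133 gave 6 of 8 members higher and 1 lower, where 27.7% of all genes were called, 13.2% higher and 14.5% lower. The members' median was 0.87 and that of all genes -0.01 on the log2 scale. Ager was at 959 and 919 CPM in the ethanol libraries under drug and at 2144 and 1841 CPM in the 4OHT libraries under drug. Its ranges did not overlap, and the log2 change was 1.08 (SE 0.14, adjusted p = 0.0015). Rtkn2 was at 5.70 and 3.38 CPM against 38.2 and 36.9 CPM, a log2 change of 3.04 (SE 0.25, adjusted p = 0.000286). Akap5 was at 305 and 190 CPM against 592 and 721 CPM, a change of 1.41 (SE 0.28, adjusted p = 0.0083). Every deleted library of these 3 genes was above every library with Hnf4a.

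Hopx was at 406 and 347 CPM against 523 and 504 CPM (log2 change 0.45, SE 0.12, adjusted p = 0.0288), and Cav1 at 79.6 and 55 CPM against 109.7 and 141.5 CPM (0.90, SE 0.26, adjusted p = 0.0343). Aqp5, at 590 and 532 CPM against 823 and 777 CPM, was called higher here (0.51, SE 0.12, adjusted p = 0.0144). Clic5 was at 515 and 333 CPM against 682 and 844 CPM and missed the threshold (0.85, SE 0.29, adjusted p = 0.0601), although DESeq2 called it (0.85, adjusted p = 0.0255). Vegfa, at 676 and 490 CPM against 342 and 377 CPM, was called lower (-0.70, SE 0.20, adjusted p = 0.0374), beside 9 of 9 other hypoxia-responsive genes called lower (median -1.87). With 1 library fewer several calls were lost while the direction stayed. Aqp5 (0.43 to 0.55), Cav1 (0.65 to 1.07) and Hopx (0.33 to 0.47) were each no longer called without 4OHT/MRTX1133 replicate 1 or 2 or ethanol/MRTX1133 replicate 2. Vegfa (-0.44 to -0.77) was lost without either 4OHT/MRTX1133 library or ethanol/MRTX1133 replicate 1, and Akap5 (1.26, adjusted p = 0.0604) without 4OHT/MRTX1133 replicate 2. The basal cell genes summed to 4.75 and 4.74 CPM in ethanol and to 16.8 and 13.6 CPM in 4OHT under drug, with Krt14 (1.91) called higher and Trp63 (-2.81) lower of 3 tested. The mesothelial genes summed to 210 and 193 CPM against 292 and 330 CPM, with Msln (0.63) called higher of 3 tested. The only fibroblast gene listed, Col1a1, was called higher from 3 counts in each ethanol library to 12 counts in each 4OHT library. The part of these lists in the members' changes was not tested.

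MRTX1133 itself was compared with its vehicle separately in organoids with and without Hnf4a. In organoids with Hnf4a, Ager, Hopx and Rtkn2 rose, 3 of 8 members, where 0.349% of all genes were called, 0.317% higher and 0.0323% lower. This comparison uses the same ethanol vehicle libraries as the deletion without drug. Ager was at 318 and 394 CPM without the drug and at 959 and 919 CPM with it, with no overlap (log2 change 1.40, SE 0.14, adjusted p = 0.0133). The log2 changes of Hopx and Rtkn2 were 0.93 (SE 0.12, adjusted p = 0.0331) and 2.03 (SE 0.29, adjusted p = 0.0415). Akap5 (1.73, SE 0.28, adjusted p = 0.0615), Cav1 (0.68), Clic5 (0.63), Vegfa (-0.25) and Aqp5 (-0.38) did not pass the test. Hnf4a was at 180 and 184 CPM with the drug (-0.31, adjusted p = 0.378). Of 10 genes that report ERK output, edgeR called 0, with a median log2 change of -0.08. The part of either in the members' changes was not tested.

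The 3 calls were not kept in every fit or without every library. A fit of the 4 libraries of the 2 groups alone called 0 of the 8 members and 0% of 14319 genes (Ager 1.38, adjusted p = 0.225; Hopx 0.92, 0.451; Rtkn2 2.01, 0.451), while DESeq2 also called Akap5 (1.70, adjusted p = 4.31e-06). Ager was lost without ethanol/MRTX1133 replicate 1 (1.34) or 2 (1.43), Hopx without either of these (0.79 and 1.04) or ethanol/vehicle replicate 1 (0.90), and Rtkn2 without ethanol/vehicle replicate 1 (2.30) or ethanol/MRTX1133 replicate 1 (1.57). Akap5 was gained without ethanol/vehicle replicate 1 (2.13, adjusted p = 0.0391) or replicate 2 (1.42, adjusted p = 0.045).

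After deletion of Hnf4a, the drug was again accompanied by higher Ager, Hopx and Rtkn2, 3 of 8 members, where 4.64% of all genes were called, 2.1% higher and 2.54% lower. Ager was at 824 and 842 CPM without and 2144 and 1841 CPM with the drug, above the vehicle in both libraries (log2 change 1.26, SE 0.14, adjusted p = 0.0135). Hopx changed by 0.82 (SE 0.12, adjusted p = 0.019) and Rtkn2 by 1.79 (SE 0.23, adjusted p = 0.0174). Clic5, at 362 and 353 CPM against 682 and 844 CPM, did not pass the test despite ranges that did not overlap (1.10, SE 0.29, adjusted p = 0.0743). Akap5 (0.69, adjusted p = 0.2), Cav1 (0.28, 0.583), Vegfa (0.15, 0.726) and Aqp5 (-0.04, 0.866) were not called either. Vegfa was at 323 and 326 CPM without and 342 and 377 CPM with the drug, while 5 of 9 other hypoxia-responsive genes were called lower (median -1.02). The mesothelial gene Lrrn4 (-1.58) was called lower, and so was what remained of Hnf4a, at 49.4 and 50.4 CPM without and 25.3 and 29.8 CPM with the drug (-0.86, SE 0.13, adjusted p = 0.0185). Their part in these results was not tested. Each of the 3 calls was lost without any 1 of the 4 libraries of the 2 groups, at log2 changes of 1.15 to 1.37 for Ager, 0.79 to 0.85 for Hopx and 1.77 to 1.82 for Rtkn2. A fit of those 4 libraries alone called 26.5% of 14847 genes and 5 members, with Akap5 (0.70, adjusted p = 0.00259) and Clic5 (1.10, adjusted p = 0.0006) added.

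Whether the drug response differed with Hnf4a status was tested as an interaction. The quasi-likelihood test of edgeR called 0 of 8 members and 0% of all genes, 0% higher and 0% lower, while 1150 genes had an unadjusted p under 0.05 and DESeq2 called 30 genes. The members' interaction estimates ran from -1.04 for Akap5 (95% interval -1.93 to -0.14) to 0.47 for Clic5 (-0.46 to 1.39). That of Ager was -0.14 (-0.60 to 0.32), that of Hopx -0.11 (-0.51 to 0.28) and that of Rtkn2 -0.23 (-1.08 to 0.62). Cav1 stood at -0.39 (-1.23 to 0.44), Aqp5 at 0.34 (-0.04 to 0.71) and Vegfa at 0.40 (-0.26 to 1.06). From the ethanol vehicle to 4OHT with MRTX1133, the mean level of Rtkn2 was 33.7 times as high, that of Akap5 8.81 times, of Ager 5.59 times, of Cav1 2.98 times, of Clic5 2.78 times and of Hopx 2.61 times. Aqp5 was at 1.09 and Vegfa at 0.518 times its vehicle level.

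At 2 weeks after 4OHT, only Rtkn2 and Aqp5 among 9 members were called, both higher, against 9.81% of all 14492 genes tested (4.03% higher, 5.78% lower). The members' median was 0.24 and that of all genes 0.02 on the log2 scale. Rtkn2 was at 2.18 and 1.80 CPM in ethanol and at 5.74 and 7.57 CPM in 4OHT, without overlap (log2 change 1.74, SE 0.30, adjusted p = 0.0259). Aqp5 was at 551 and 597 CPM against 812 and 927 CPM, also without overlap (0.60, SE 0.13, adjusted p = 0.0479). Rtkn2 was lost without 4OHT replicate 1 (1.92, adjusted p = 0.0841) or replicate 2 (1.53, 0.132). Aqp5 was lost without 4OHT replicate 1 (0.69, 0.136), 4OHT replicate 2 (0.50, 0.206) or ethanol replicate 1 (0.53, 0.0787), and with RLE size factors (0.59, 0.0525).

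The receptor Ager, called higher in the 48-hour experiment, was at 637 and 702 CPM in ethanol and 605 and 634 CPM in 4OHT at 2 weeks. The 4OHT libraries lay just below the ethanol libraries, and the log2 change of -0.11 (SE 0.12, adjusted p = 0.579) did not pass the test. Clic5 was at 121 and 94.1 CPM against 62.9 and 74.0 CPM (-0.65, SE 0.17, adjusted p = 0.0728), lower in both deleted libraries, and it was called without ethanol replicate 2 (-0.82, adjusted p = 0.0152). Akap5 was at 52.3 and 15.8 CPM against 138 and 112 CPM (1.87, SE 0.52, adjusted p = 0.0825). Its ethanol libraries stood far apart, and it was called without ethanol replicate 1 (2.97, adjusted p = 5.83e-05) or replicate 2 (1.26, adjusted p = 0.0024).

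Hopx, at 189 and 180 CPM against 213 and 223 CPM (0.24, adjusted p = 0.229), and Cav1, at 132 and 166 CPM against 155 and 201 CPM (0.26, adjusted p = 0.397), were not called. Vegfa was at 731 and 1030 CPM against 410 and 810 CPM with overlapping ranges (-0.53, SE 0.34, adjusted p = 0.355), while 4 of 10 other hypoxia-responsive genes, Egln3, Bnip3, Pgk1 and Pdk1, were called lower. Pdpn had 10 and 28 counts in ethanol and 3 and 11 counts in 4OHT and was not called (-1.61, SE 0.90, adjusted p = 0.295). Of the endothelial genes, 3 of 6 were listed and their sum was 5.07 to 5.93 CPM in ethanol against 2.17 to 2.55 CPM in 4OHT, almost all of it Pecam1, with Cdh5 at 0 in ethanol replicate 1. Of the immune genes, 4 of 5 were listed, with a sum of 18.6 to 44.7 CPM in ethanol against 10.1 to 13.5 CPM in 4OHT. Pecam1 (-1.37) and Csf1r (-2.58) were the genes of these lists called lower. The mesothelial genes summed to 884 and 1220 CPM against 663 and 879 CPM, with Upk3b (-1.32) called lower and Msln (0.13) not called. The basal cell genes summed to 31.8 and 54.8 CPM against 20.3 and 28.0 CPM, with 0 of 2 called by edgeR, at -0.99 for Krt5 and -0.81 for Krt14 and both with an unadjusted p under 0.05. Their part in these results was not tested.

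In the 1027B organoids, which carry no floxed Hnf4a, trametinib was accompanied by higher Ager, Akap5, Clic5, Hopx and Rtkn2 and by lower Aqp5. Of 9 members, 5 rose and 1 fell, against 26.7% of all 14555 genes tested (13.5% higher, 13.2% lower). The members' median was 1.45 and that of all genes -0.01 on the log2 scale. The 3 groups of this table share replicate numbers and their libraries deviated together by number, so values of a fit with the replicate number as a block are given where they change a call.

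Ager was at 25.1 and 116 CPM in vehicle and at 770 and 1286 CPM with trametinib. The vehicle libraries differed from each other, yet both lay far below both treated libraries (log2 change 3.87, SE 0.73, adjusted p = 0.0109), and the change was 3.15 without vehicle replicate 1 and 5.38 without vehicle replicate 2. Akap5 was at 151.4 and 150.8 CPM against 505 and 554 CPM (1.81, SE 0.12, adjusted p = 0.000578). Clic5 was at 193 and 343 CPM against 953 and 1061 CPM (1.91, SE 0.31, adjusted p = 0.00646). None of these 3 overlapped between groups.

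Rtkn2 was at 5.13 and 9.70 CPM against 33.0 and 44.0 CPM (2.38, SE 0.32, adjusted p = 0.00379). Hopx was at 30.4 and 63.9 CPM against 114 and 143 CPM (1.45, SE 0.40, adjusted p = 0.0383). Aqp5 went down from 1125 and 1102 CPM to 733 and 857 CPM (-0.49, SE 0.12, adjusted p = 0.0262). Treated libraries of Rtkn2 and Hopx were all above, and those of Aqp5 all below, the vehicle libraries. Hopx was lost without vehicle replicate 1 (1.01), trametinib replicate 1 (1.6) or replicate 2 (1.28), and Aqp5 without either vehicle library (-0.47 and -0.48), without trametinib replicate 1 (-0.38) and in a fit of the 2 groups alone (-0.47, adjusted p = 0.0597).

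Cav1 was at 16.6 and 16.0 CPM against 24.0 and 43.4 CPM and was not called (1.05, SE 0.35, adjusted p = 0.0675), but passed with the replicate block (0.98, adjusted p = 0.00566). Pdpn was low throughout, at 2.03 and 1.73 CPM against 3.38 and 4.38 CPM (1.04, SE 0.44, adjusted p = 0.123; with the block 1.01, adjusted p = 0.0497). Vegfa, at 781 and 1090 CPM against 823 and 944 CPM, had overlapping ranges and a log2 change of -0.08. With the block, 8 members and 6540 of all genes (44.9%) were called. Hnf4a was at 446 and 471 CPM in vehicle and at 254 and 200 CPM with trametinib, and its part in the members' changes was not tested. Of the epithelial genes Cdh1 (0.56) was called higher and Cldn7 (-0.56) lower, and of the immune genes Csf1r (2.58) higher and Ptprc (-2.78) lower, the immune sum being 7.85 to 8.28 CPM in vehicle and 6.62 to 7.26 CPM with trametinib. Their part was not tested either.

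MRTX1133 in the same organoids was set against the same vehicle libraries, at 20 nM against 10 nM for trametinib. Akap5 and Rtkn2 rose and Aqp5 fell, 2 members higher and 1 lower of 9, where 6.27% of all genes were called, 3.01% higher and 3.26% lower. The members' median was 1.0 and that of all genes 0.01 on the log2 scale. Akap5 was at 410 and 479 CPM (1.56, SE 0.12, adjusted p = 0.00365), Rtkn2 at 21.7 and 29.2 CPM (1.78, SE 0.32, adjusted p = 0.0276) and Aqp5 at 738 and 766 CPM (-0.57, SE 0.12, adjusted p = 0.0429). None of the 3 overlapped with vehicle. Aqp5 was lost without any 1 of the 4 libraries (-0.54 to -0.58) and in a fit of the 2 groups alone (-0.56, adjusted p = 0.0533), and Rtkn2 without vehicle replicate 1 (1.39), MRTX1133 replicate 1 (1.99) or replicate 2 (1.56).

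Ager was at 355 and 661 CPM with MRTX1133, above both vehicle libraries, but its log2 change of 2.85 (SE 0.70) had an adjusted p of 0.0635. Clic5, at 422 and 648 CPM, did not overlap with vehicle either (1.00, SE 0.30, adjusted p = 0.107), while Hopx, at 54.1 and 101 CPM, did (0.72, adjusted p = 0.336). Cav1, at 19.6 and 35.4 CPM (0.75, adjusted p = 0.259), and Pdpn, at 3.12 and 7.08 CPM (1.42, adjusted p = 0.11), lay above vehicle without being called. Vegfa, at 723 and 915 CPM, overlapped with vehicle (-0.19, adjusted p = 0.617). With the replicate block these passed, Ager at 3.07 (adjusted p = 0.000354), Clic5 at 1.01 (0.00149) and Hopx at 0.74 (0.0123), as did Pdpn at 1.33 (0.028) and Cav1 at 0.68 (0.0472). In all, the block gave 8 members and 3515 genes (24.1%) called. Ager was also called by DESeq2 (2.85, adjusted p = 0.017) and without vehicle replicate 2 (4.36, adjusted p = 0.0253). Hnf4a was at 298 and 242 CPM with MRTX1133, below both vehicle libraries (-0.76, SE 0.15, adjusted p = 0.0375), and of the epithelial genes Cldn7 (-0.46) was called lower. Their part in the members' changes was not tested.

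The difference between the 2 drugs was tested directly, at the different doses used. edgeR called 0 of 9 members and 0% of all genes, 0% higher and 0% lower, while 2357 genes reached an unadjusted p under 0.05 and DESeq2 called 675. The MRTX1133-minus-trametinib estimates were -1.02 for Ager, -0.91 for Clic5, -0.73 for Hopx, -0.60 for Rtkn2 and -0.25 for Akap5 on the log2 scale. They were -0.30 for Cav1, -0.11 for Vegfa, -0.08 for Aqp5 and 0.38 for Pdpn. With the replicate block 4 members were called, all lower with MRTX1133, namely Ager (-1.05, adjusted p = 0.0386), Clic5 (-0.95, 0.00422), Hopx (-0.79, 0.0134) and Rtkn2 (-0.60, 0.0212), among 2050 genes (14.1%). The dose and the compound cannot be told apart here.

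**Figure D3:**
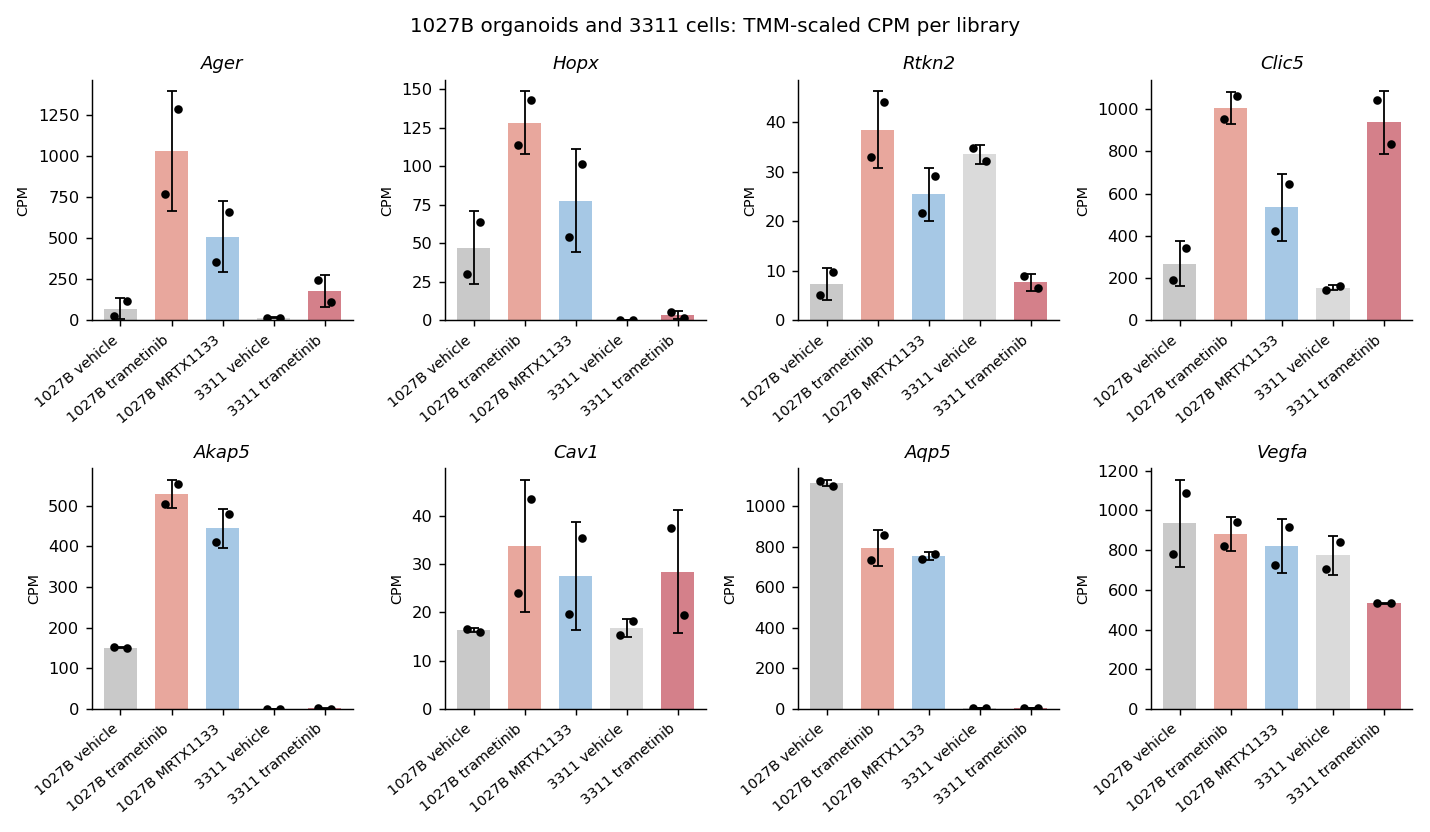
CPM of the members in the 1027B organoids (vehicle, trametinib, MRTX1133) and the 3311 cells (vehicle, trametinib); bars are means, error bars the SD of n = 2 libraries and points the libraries. The mean of Ager is above vehicle in each inhibitor group, and Rtkn2 goes up in 1027B and down in 3311.

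In the 3311 cells trametinib was accompanied by higher Ager, Akap5, Clic5 and Hopx and by lower Rtkn2 and Vegfa. Of 8 members tested, 4 rose and 2 fell, against 39% of all 15224 genes tested (19.4% higher, 19.6% lower). The 4 include Akap5, which passed the filter on low counts only through the trametinib libraries. The members' median was 1.68 and that of all genes 0.01 on the log2 scale. Clic5 was at 146 and 162 CPM in vehicle and at 1042 and 833 CPM with trametinib, with no overlap (2.61, SE 0.18, adjusted p = 0.00038). Ager was at 16.5 and 12.9 CPM against 246 and 110 CPM (3.60, SE 0.38, adjusted p = 0.00104). Both of its treated libraries were above vehicle, at levels below those of most 1027B and 3154 groups.

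Hopx and Akap5 were barely detected in this line. Hopx had 13 and 12 counts in vehicle and 151 and 40 counts with trametinib (2.84, SE 0.67, adjusted p = 0.0158). Akap5 had 9 and 0 counts against 49 and 26 counts (2.97, SE 0.93, adjusted p = 0.0411). Akap5 passed the filter on low counts only through the trametinib libraries, so a fall from its vehicle level would not have been tested. Hopx was lost without vehicle replicate 1 (2.85), vehicle replicate 2 (2.83) or trametinib replicate 1 (1.65), and Akap5 without vehicle replicate 2 (2.02) or trametinib replicate 1 (2.50); without vehicle replicate 1 the fitted change of Akap5 was 8.19 against a group at 0.

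Rtkn2 was at 34.9 and 32.1 CPM in vehicle and at 8.89 and 6.51 CPM with trametinib, all treated libraries below vehicle (-2.12, SE 0.21, adjusted p = 0.000913). Vegfa was at 704 and 843 CPM against 532 and 535 CPM (-0.54, SE 0.16, adjusted p = 0.0366), beside 4 of 10 other hypoxia-responsive genes called lower (Adm, Ankrd37, Pgk1 and P4ha1), whose part in the result was not tested. Vegfa was lost without vehicle replicate 2 (-0.40), trametinib replicate 1 (-0.53) or replicate 2 (-0.55). Cav1 was at 15.4 and 18.1 CPM against 37.5 and 19.4 CPM (0.76, SE 0.31, adjusted p = 0.0867) and was called without trametinib replicate 2 (1.15, adjusted p = 0.00118). Aqp5 was low, at 4.42 and 3.59 CPM against 4.80 and 3.35 CPM, with overlapping ranges (0.03). Hnf4a was at 374 and 479 CPM in vehicle and at 263 and 390 CPM with trametinib and was not called (-0.39, SE 0.22, adjusted p = 0.208). Its part in the members' changes was not tested. Other cell type lists held calls in both directions. These were Col1a1 (1.62) and Pdgfra (-0.84) of the fibroblast genes (14.9 to 15.8 CPM summed in vehicle, 11.4 to 14.4 CPM with trametinib), and Csf1r (1.55) and Cd68 (-1.83) of the immune genes (9.55 to 15.7 against 21.8 to 28.7 CPM). Krt14 (-2.51) of the basal cell genes, which summed to under 1 CPM in each library, and Krt18 (-1.43) of the epithelial genes (5370 to 6240 against 3660 to 4570 CPM) were called lower. The part of these lists in the members' changes was not tested.

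In the human line H358 trametinib was accompanied by higher CLIC5, HOPX, AKAP5 and CAV1 and by lower VEGFA and RTKN2. Of 7 members tested, 4 rose and 2 fell, against 46.8% of all 18972 genes tested (23.5% higher, 23.2% lower). The members' median was 0.84 and that of all genes 0.02 on the log2 scale. HNF4A had 0 counts in each library of this line. All 6 calls were kept without each of the 4 libraries in turn.

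CLIC5 was at 3.26 and 4.27 CPM in vehicle and at 153 and 171 CPM with trametinib, 43.1-fold higher (log2 change 5.43, SE 0.16, adjusted p = 1.4e-06). HOPX was at 13.3 and 13 CPM against 47.6 and 76.7 CPM (2.24, SE 0.22, adjusted p = 0.000136). AKAP5 was at 4.14 and 3.85 CPM against 12.1 and 9.81 CPM (1.46, SE 0.19, adjusted p = 0.000542). All treated libraries of these 3 intracellular members lay above vehicle. RTKN2, at 13.7 and 18.1 CPM against 6.79 and 9.23 CPM, lay below vehicle in both (-1.0, SE 0.21, adjusted p = 0.00523).

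CAV1 was at 396 and 402 CPM against 711 and 722 CPM (0.84, SE 0.10, adjusted p = 0.000292). VEGFA was at 757 and 688 CPM against 173 and 193 CPM (-1.98, SE 0.11, adjusted p = 1.49e-05), and 7 of 9 other hypoxia-responsive genes were called lower, whose part in the result was not tested. Neither gene overlapped between the groups. AGER, whose mean was above vehicle in every mouse inhibitor comparison, was at 3.47 and 1.49 CPM against 2.73 and 2.16 CPM. Its ranges overlapped, and its log2 change was -0.02 (SE 0.38, adjusted p = 0.973). All 6 fibroblast genes were listed in this line, their sum was 40.8 to 49.6 CPM in vehicle and 246 to 348 CPM with trametinib, and 4 of 5 tested were called higher, DCN (6.80), LUM (4.02), COL3A1 (3.41) and COL1A1 (1.88), whose part in the members' changes was not tested. Of the 4 basal cell genes, 2 of 3 tested, NGFR (-3.24) and TP63 (-1.98), were called lower, and their sum was 90.8 to 107 CPM against 21.9 to 27.3 CPM. Of the 5 epithelial genes, KRT18 (-1.58), KRT8 (-1.04) and EPCAM (-0.68) were called lower and CDH1 (1.05) higher, and their sum was 4340 to 4430 CPM against 2610 to 3040 CPM. Of 3 mesothelial genes tested, MSLN (3.13) and UPK3B (2.08) were called higher and LRRN4 (-1.92) lower, with a sum of 1.70 to 2.18 CPM against 6.64 to 7.22 CPM. The endothelial gene CDH5 (3.57) and the immune gene PTPRC (1.87) were also called higher, in lists that summed to 12.1 to 14.4 against 21.1 to 21.2 CPM and 1.28 to 1.61 against 1.53 to 1.98 CPM. The part of these lists in the members' changes was not tested either.

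In H1651, at the same dose and time, edgeR called 0 of 7 members and 0% of all 18277 genes tested, 0% higher and 0% lower, while 597 had an unadjusted p under 0.05 and DESeq2 called 47. All members had an adjusted p of 0.999. A separate fit with the replicate number as a block called 1881 genes (10.3%) and 4 members, all higher. These were CLIC5 (1.27), HOPX (1.18), RTKN2 (0.48) and CAV1 (0.17). The labels do not say that same-numbered libraries are pairs, and the values below are without the block. RTKN2 was at 12.7 and 11.9 CPM in vehicle and at 17.7 and 16.7 CPM with trametinib (0.48, 95% interval 0.18 to 0.78), and CAV1 at 173 and 178 CPM against 208 and 188 CPM (0.17, -0.07 to 0.41). Neither overlapped between groups. CLIC5, at 5.83 and 2.30 CPM against 14.1 and 5.58 CPM (1.26, -0.28 to 2.80), and HOPX, at 0.770 and 0.218 CPM against 1.79 and 0.449 CPM (1.12, -1.0 to 3.24) had overlapping ranges. VEGFA, AGER and AKAP5 had log2 changes of 0.01, 0.22 and 0.10 with overlapping ranges. CLIC5 was called without vehicle replicate 1 (2.09, adjusted p = 0.00772).

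The difference between the responses of the 2 human lines was tested in 1 fit over 21188 genes. Of the 7 members, 2 had a higher and 3 a lower response in H1651 than in H358, where 19.3% of all genes differed, 9.86% higher and 9.43% lower. The H1651-minus-H358 difference was -4.21 for CLIC5 (SE 0.66, adjusted p = 0.00363), -1.38 for AKAP5 (SE 0.40, adjusted p = 0.0449) and -0.70 for CAV1 (SE 0.13, adjusted p = 0.00782). It was 1.97 for VEGFA (SE 0.17, adjusted p = 0.000442) and 1.45 for RTKN2 (SE 0.26, adjusted p = 0.0064). HOPX (-1.17, adjusted p = 0.362) and AGER (0.21, adjusted p = 0.877) did not pass. The call of AKAP5 was lost without 6 of the 8 libraries (-1.04 to -1.54), namely both H358 vehicle libraries, both H358 trametinib libraries, H1651 vehicle replicate 2 and H1651 trametinib replicate 1. Of 10 genes that report ERK output, 10 were called lower in H358 (median log2 change -3.91), where 23.2% of all genes were, and edgeR called 0 in H1651 (median -1.92). Their responses differed between the lines for 6 of 10, all higher in H1651, with a median H1651-minus-H358 difference of 1.63. With trametinib 8 of 10 were called lower in 1027B (median -1.88, 13.2% of all genes lower) and 9 of 10 in 3311 (-1.85, 19.6%). With MRTX1133 4 of 10 were called lower in 1027B (-0.66, 3.26%), 0 in 3154 with Hnf4a (-0.08, 0.0323%) and 3 after deletion (-0.38, 2.54%). The part of this list in the members' changes was not tested.

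**Figure D4:**
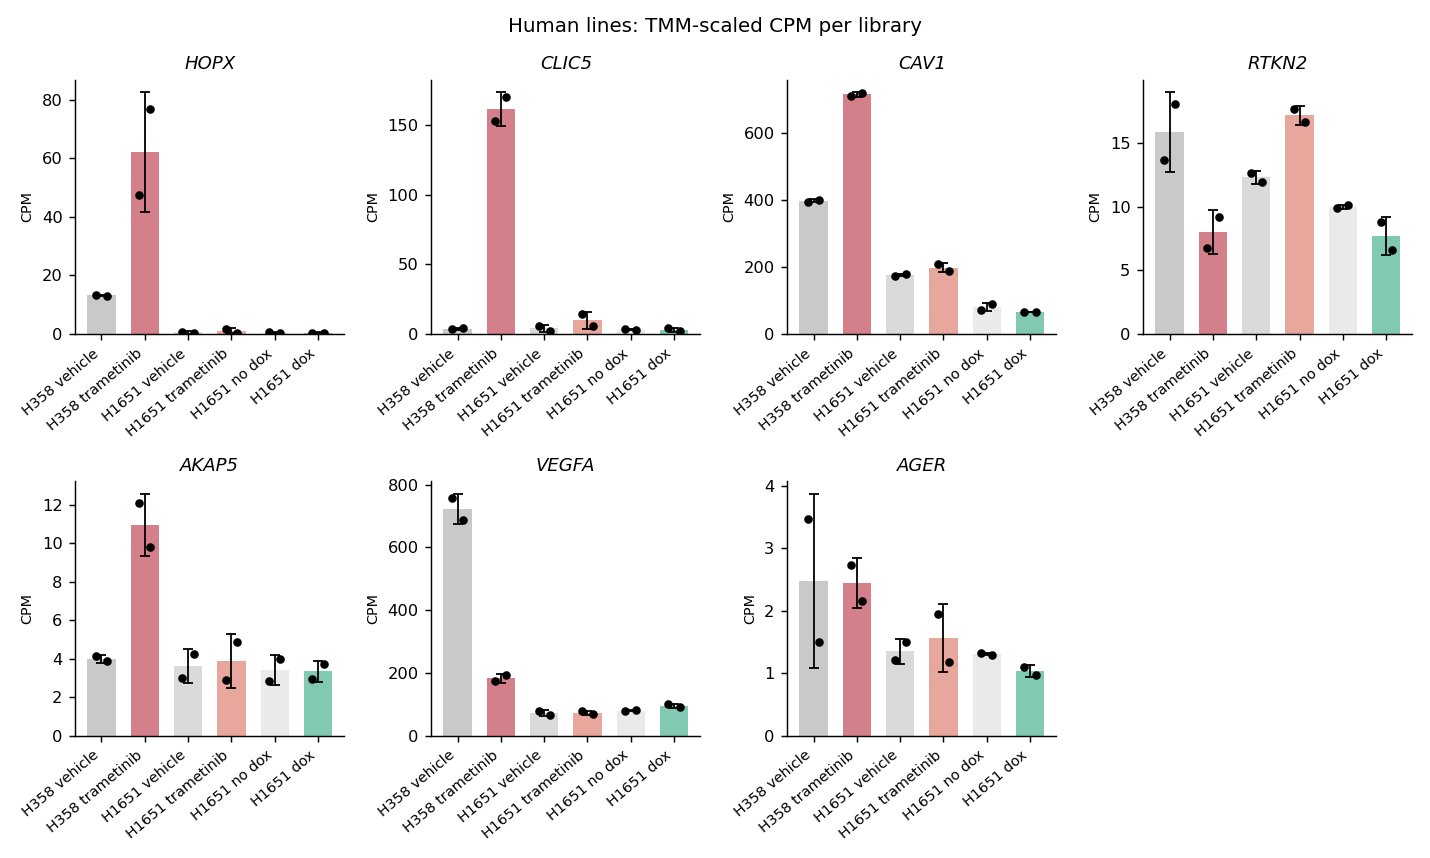
CPM of 7 members in H358 and H1651 without and with trametinib and in H1651 without and with doxycycline; bars are means, error bars the SD of n = 2 libraries and points the libraries. CLIC5 goes from 3.26 and 4.27 CPM to 153 and 171 CPM in H358 with trametinib, and no member is called in H1651 by the fits without a replicate block.

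The opposite manipulation was the induction of HNF4A in H1651. HNF4A was at 47.1 and 35.9 CPM without and 94.4 and 96.8 CPM with doxycycline (1.20, SE 0.13, adjusted p = 0.00979). Of 7 members edgeR called 0, where 1.42% of all 17351 genes tested were called, 1.04% higher and 0.386% lower, 2203 genes had an unadjusted p under 0.05 and DESeq2 called 441 genes. CAV1 was at 72.6 and 89.6 CPM without and 65.7 and 66.4 CPM with doxycycline (-0.30, 95% interval -0.55 to -0.05, adjusted p = 0.298). VEGFA was at 79.4 and 80.0 CPM against 99.2 and 90.3 CPM (0.25, 0.07 to 0.43, adjusted p = 0.22), and RTKN2 at 9.89 and 10.1 CPM against 8.76 and 6.62 CPM (-0.38, -0.78 to 0.03, adjusted p = 0.436). These 3 did not overlap between groups. A fit with the replicate number as a block called these 3 and 17.6% of all genes, but the labels do not say that same-numbered libraries are pairs. The ranges of AGER, at 1.3 to 1.32 CPM without and 0.971 to 1.1 CPM with doxycycline, did not overlap either. AGER, HOPX, CLIC5 and AKAP5 were each under 5 CPM in every library, with log2 changes of -0.33, -0.04, -0.03 and -0.04. Of other lists, the epithelial genes KRT8 (0.44) and KRT18 (0.42) were called higher and the fibroblast gene COL3A1 (-0.84) lower, and their part was not tested.

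A list of 25 other AT1 genes was read beside the members. Pooled over the 11 comparisons with vehicle, 41.4% of its 249 tests were called higher and 3.21% lower. Of the tests of all genes 8.77% were called higher and 8.98% lower. The list was chosen with earlier results of these data known, and some comparisons share libraries, so its tests are not separate and its counts are a description. In the 48-hour experiment 4OHT without drug was accompanied by 15 of 23 tested higher and 1 lower (median 0.96), where 15.3% of all genes were higher and 15.7% lower. Under MRTX1133 17 rose and 1 fell (median 0.99), where 13.2% were higher and 14.5% lower. The lipid-binding protein Sec14l3 (4.69 and 3.14), the basement membrane collagen chain Col4a3 (4.57 and 3.09) and the tight junction protein Cldn18 (3.53 without drug) led. The gene of the list that fell in both was Fstl3 (-2.18 and -1.84). At 2 weeks, with 4.03% of all genes higher and 5.78% lower, 5 of 23 rose (median 0.07), Cldn18 (2.52), Lama3 (2.50), Col4a3 (1.80), Krt7 (1.42) and Col4a4 (1.25), and 1, Timp3 (-0.97), fell.

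Trametinib in 1027B was accompanied by 14 of 23 higher and 0 lower (median 0.77), where 13.5% of all genes were higher and 13.2% lower. The list was led there by Sec14l3 at 7.70, the sodium channel subunit Scnn1g at 5.5 and Limch1 at 3.61. In 3311, with 19.4% of all genes higher and 19.6% lower, 14 of 21 rose and 3 fell (median 1.35), with Col4a3 at 6.87 and Col4a4 at 6.54 and with Fstl3 (-2.44), Sema3e (-2.03) and Gprc5a (-0.66) lower. In H358, with 23.5% of all genes higher and 23.2% lower, 16 of 21 rose and 2 fell (median 1.13), with COL4A3 at 5.45 and COL4A4 at 4.75 and with NDNF (-1.53) and LAMA3 (-1.4) lower. MRTX1133 gave 9 of 23 higher in 1027B (median 0.40, with 3.01% of all genes higher), 5 of 23 in 3154 with Hnf4a (median 0.51, with 0.317%) and 7 of 23 after deletion (median 0.36, with 2.1%), and 0 lower in each. The 5 with Hnf4a present were Sec14l3 (4.50), Cldn18 (2.45), Limch1 (2.38), Scnn1g (2.07) and Col4a4 (1.99). In H1651 edgeR called 0 of 23 with trametinib (median 0.18), where 0% of all genes were called, and 1, IGFBP2 (0.81), with doxycycline, where 1.04% were higher.

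AT2 genes did not move as one group. Of 12 tested in 1027B with trametinib 3 rose and 6 fell, where 13.5% of all genes were higher and 13.2% lower, their sum going from 7320 and 11500 CPM to 3040 and 3480 CPM, and the surfactant proteins were split, with Sftpc at 4.01, Sftpd at 0.60, Sftpa1 at -3.76 and Sftpb at -2.99. Lpcat1 (1.1) was the other gene that rose. In 3311 the sum went from 4810 and 5580 CPM to 833 and 951 CPM, and of 5 tested Sftpb (-3.82) and Etv5 (-1.83) fell and Lpcat1 (1.81) rose, where 19.4% of all genes were higher and 19.6% lower. In H358, with 23.5% of all genes higher and 23.2% lower, 6 of 9 rose and 1 fell (median 1.13), with SLC34A2 at 4.57, LYZ at 2.2 and ETV5 at -5.83, while the sum was 404 and 448 CPM against 432 and 524 CPM. After Hnf4a deletion without drug in the 48-hour experiment 5 of 12 rose, Lpcat1 (1.7), Napsa (1.0), Abca3 (0.97), Slc34a2 (0.67) and Sftpb (0.62), and Etv5 fell (-0.58), where 15.3% of all genes were higher and 15.7% lower. Under MRTX1133 the deletion gave 3 of 12 higher, Lyz2 (2.52), Lpcat1 (1.39) and Napsa (0.88), and 0 lower, where 13.2% and 14.5% of all genes were. With MRTX1133 the sum went up in 3154, from 7410 and 9900 CPM to 12300 and 15100 CPM with Hnf4a and from 9680 and 11000 CPM to 19100 and 14700 CPM after deletion, and down in 1027B, to 3650 and 5400 CPM. edgeR called 0 of 12 for the drug with Hnf4a (0.317% of all genes higher, 0.0323% lower), while 4 had an unadjusted p under 0.05. After deletion Sftpc (1.73) and Lpcat1 (0.68) rose and Sftpb (-0.76) fell (2.1% higher, 2.54% lower), and in 1027B Sftpc (2.59) rose and Lamp3 (-2.63) fell (3.01% higher, 3.26% lower).

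Genes of the AT2-to-AT1 transitional state included fewer higher than lower calls with trametinib, 2 against 7 of 15 in 1027B, 1 against 6 of 15 in 3311 and 3 against 8 of 13 in H358. All genes were split nearly evenly in these comparisons, at 13.5% higher and 13.2% lower in 1027B, 19.4% and 19.6% in 3311, and 23.5% and 23.2% in H358. In 1027B Fosl1 was at -4.34 and Areg at -2.09. The higher ones were Itgb6 (1.47) and Nupr1 (0.99) in 1027B, Itgb6 (1.73) in 3311, and HBEGF (1.38), CDKN1A (0.94) and LGALS3 (0.74) in H358. In H1651 edgeR called 0 of 14 with trametinib, where 5 had an unadjusted p under 0.05, and 3 of 14 higher and 0 lower with doxycycline, CDKN1A (0.94), KRT8 (0.44) and KRT18 (0.42), where 1.04% of all genes were higher. The deletion in the 48-hour experiment gave 3 higher and 4 lower of 15 without drug and the same counts under MRTX1133. Of all genes 15.3% were higher and 15.7% lower without drug, and 13.2% and 14.5% under it. Itgb6 (1.63 and 1.69) and Hbegf (1.06 and 0.69) were higher and Ndrg1 (-2.31 and -3.06), Cdkn1a (-2.48 and -2.81), Nupr1 (-2.36 and -0.71) and Lgals3 (-0.67 and -0.56) lower in both. The third higher gene was Fosl1 (1.80) without drug and Cldn4 (0.76) under it. At 2 weeks Fosl1 (1.65) and Itgb6 (1.07) were higher and Ndrg1 (-1.72) lower, where 4.03% of all genes were higher and 5.78% lower. MRTX1133 gave 1 of 15 higher, Itgb6 (1.25), and 4 lower in 1027B, Fosl1 (-2.07), Areg (-1.20), Sfn (-0.89) and Lgals3 (-0.62), where 3.01% of all genes were higher and 3.26% lower. In 3154 it gave 1 higher, Nupr1 (1.20), and 2 lower, Ndrg1 (-1.35) and Cdkn1a (-0.79), after deletion, where 2.1% of all genes were higher and 2.54% lower. With Hnf4a edgeR called 0 of 15 for the drug, where 4 had an unadjusted p under 0.05 and 0.317% of all genes were higher and 0.0323% lower.

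**Figure D5:**
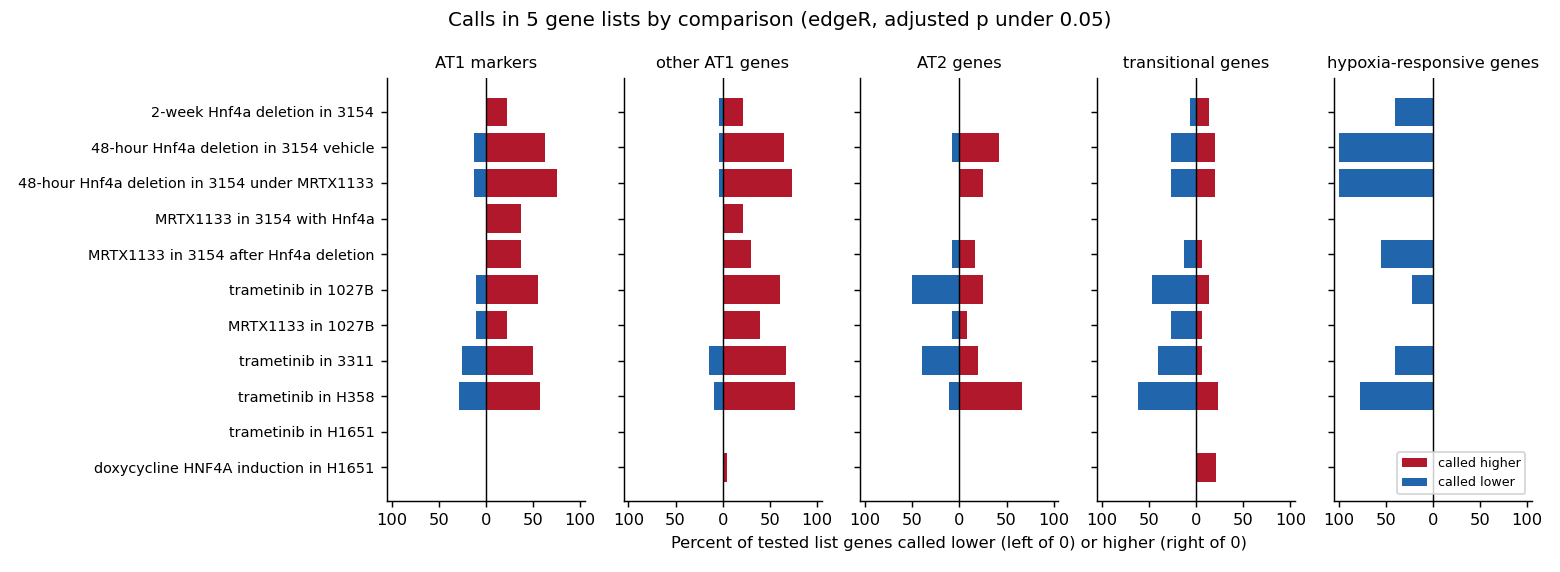
Percent of tested genes called higher (up) and lower (down) in 5 gene lists for each comparison with vehicle. Calls among the members (34 higher, 8 lower over all comparisons) and the other AT1 genes (103 higher, 8 lower) are mostly to the higher side, those of the hypoxia-responsive genes (40) are all lower, and the H1651 comparisons hold almost no calls.

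Over the 22 mouse libraries, after centring log2 CPM on the mean of each table, Ager and Hopx had a Pearson r of 0.910, Ager and Clic5 0.909, and Clic5 and Hopx 0.895. Rtkn2 followed Ager less closely (0.414). Vegfa had negative r with every other member compared, from -0.22 to -0.689, and Aqp5 had r between -0.29 and 0.191. By Pearson r the genes most like Ager over these libraries were Smad9 (0.962), Fzd8 (0.961) and Nceh1 (0.952), and those most like Hopx were Ndst1 (0.925), Senp2 (0.919) and Sirt5 (0.915). For Rtkn2 they were Ccdc189 (0.946), Katnal1 (0.942) and Arhgap22 (0.937), and for Clic5 Gm32200 (0.949), Ano1 (0.947) and Ctns (0.945). Ranked by Spearman rho, other genes came first, Wls (0.956) for Ager, Sirt5 (0.946) for Hopx, Limd2 (0.939) for Rtkn2 and Ctns (0.949) for Clic5. The libraries share tables, cultures and treatments, 12590 genes were compared, and the values are a description.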

How the data were processed

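Poly(A) RNA from 34 libraries had been sequenced, per the labels' protocols. The authors deposited raw read counts per gene in 7 tables, with no normalization. Per the submitters' processing notes, cutadapt 3.5, STAR 2.7.6a and featureCounts 1.6.3 were used with the builds mm10, mm39 and hg38; which build belongs to which table is not given in the sources used here. The 3311 columns name treatment and replicate only and were assigned to 3311 because no other library was left.

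Each table was fitted alone in R 4.3.3 with edgeR 4.0.16 (filterByExpr defaults, TMM, quasi-likelihood F-test, Benjamini-Hochberg over all genes, called under 0.05), with all groups of a table in 1 fit, and the fit was tested on simulated data. For the difference between the human lines, H358 and H1651 were joined by gene ID. Correlations used log2 CPM with a prior count of 2. Other settings tried were upper-quartile or RLE scaling, DESeq2 1.42.0, a stricter count filter (10 or more in each library) or none, a replicate block, a fit of only the groups compared, and the omission of each library in turn. Same-numbered libraries of 1027B correlated in their deviations from group means at r = 0.243 to 0.414 over 3 pairs of groups, and the numbers were taken as pairs there. Counting error is small except for members with few counts. The members and lists were chosen with earlier results of these data known. All members tested are given in every comparison. From most other lists up to 3 called genes with the largest change in a comparison are named, with genes that a count of 5 or fewer refers to. The hypoxia-responsive and ERK output genes are given mainly as counts. A list of regulators of AT1 fate is not shown by comparison. Pooled over the comparisons with vehicle, 10.9% of its 110 tests were called higher and 8.18% lower. For Ager, Hopx, Rtkn2 and Clic5 the 3 genes most like them are named. Read-level data were not used here. One further item of the mouse genotype is not reported here.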

Additional observations from a re-analysis of the deposited data

Results flagged for a closer look

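The trametinib response of H1651 differed from that of H358, by the test of the difference itself, for CLIC5 (-4.21 on the log2 scale, H1651 minus H358), AKAP5 (-1.38), CAV1 (-0.70), RTKN2 (1.45) and VEGFA (1.97). In 3 other pairs every library of one comparison lay on one side of its vehicle and every library of the other on the opposite side, and these differences were not tested. With 2 libraries a group such a separation can arise without a change, and the share of all genes that meet the same rule was not computed. Rtkn2 changed by 2.38 with 10 nM trametinib in 1027B and by -2.12 with 50 nM in 3311. In 3154 after 4OHT the log2 change of Ager was -0.11 in the 2-week experiment (not called) and 1.22 in the 48-hour experiment, and that of Clic5 was -0.65 and 0.38 (neither called).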

How the results depend on the processing

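Over the 14 contrasts 47 changes of a member were called. Of these, 40 were called under every other scaling, filter, tool and fit tried, 7 were lost in at least 1 of these, 23 were called without each library in turn, and 0 changed direction in any setting. With 2 libraries a group, single libraries and the estimate of the spread decide many calls, and low counts limit Pdpn in 2-week 3154 and Akap5 and Hopx in 3311. The causes of the changes below were not tested, other than that leaving out a library leaves fewer samples.

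With DESeq2 the number of genes called was 2337 (main 1421) for the 2-week deletion, 319 (54) for MRTX1133 in 3154 with Hnf4a, 1291 (717) after deletion, 30 (0) for the interaction, 1593 (913) for MRTX1133 in 1027B, 675 (0) between the drugs, 47 (0) for trametinib in H1651 and 441 (247) for doxycycline. Members called with DESeq2 were 6 (main 3) for MRTX1133 in 1027B and 1 (0) between the drugs. In fits of only the groups compared, 3154 genes (4795) were called for the 48-hour deletion without drug, 0 genes (54) and 0 members (3) for MRTX1133 with Hnf4a, 3932 genes (717) and 5 members (3) after deletion, and 1 gene (0) between the drugs. Without a filter 2 genes (0) were called for trametinib in H1651. At 2 weeks 1 member (2) was called with at least 10 counts in every library and 1 with RLE factors. AGER in H358 changed sign with upper-quartile factors (0.03, main -0.02). Without a filter, AQP5 had a log2 change of -0.15 (adjusted p = 0.915) in H358 and Pdpn 2.26 (adjusted p = 0.323) in 3311.

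Fits with the replicate number as a block gave more genes called in every comparison but the interaction (0 in both), and at least as many members in all but 3311, where 5 (main 6) were called and Vegfa was lost (-0.53, adjusted p = 0.052). Genes and members called were 6540 (main 3880) and 8 for trametinib in 1027B, 3515 (913) and 8 (3) for MRTX1133 there, and 2050 (0) and 4 (0) between the drugs. In the other tables same-numbered libraries share only a number, with correlations of deviations of -0.251 to 0.549 over 6 pairs of groups in 48-hour 3154 and, with 1 pair each, 0.427 in 2-week 3154, 0.126 in 3311, 0.318 in H358, 0.623 in H1651 with trametinib and 0.318 with doxycycline. There the block gave 4563 genes (1421) and 5 members (2) at 2 weeks, 1881 genes (0) and 4 members (0) for trametinib in H1651 (CLIC5 1.27, HOPX 1.18, RTKN2 0.48 and CAV1 0.17), 3048 genes (247) and 3 members (0) for doxycycline, and 8472 genes (4087) for the difference between the human lines.

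Without 1 library each, the number of genes called ran from 395 to 2790 for the 2-week deletion, 1668 to 5964 for the 48-hour deletion without drug, 1745 to 2805 under MRTX1133, 0 to 309 for MRTX1133 with Hnf4a and 0 to 23 after deletion. It ran from 1336 to 2754 for trametinib and 138 to 349 for MRTX1133 in 1027B, 0 to 2 between the drugs, 3772 to 6298 in 3311, 0 to 193 for trametinib in H1651, 232 to 412 for doxycycline and 2177 to 3667 for the difference between the lines. Members called ran from 0 to 4 at 2 weeks, 3 to 7 at 48 h without drug, 2 to 6 under MRTX1133, 0 to 4 for MRTX1133 with Hnf4a, 0 to 0 after deletion, 1 to 3 for MRTX1133 in 1027B, 3 to 6 in 3311 and 0 to 1 for trametinib in H1651.

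Members that were not called and whose sign changed without 1 library were as follows. In the interaction Ager ran from -0.3 to 0.01, Hopx from -0.22 to 0.02 and Rtkn2 from -0.56 to 0.21. With trametinib in H1651 AGER ran from -0.19 to 0.54, AKAP5 from -0.32 to 0.43, HOPX from -0.19 to 2.35 and VEGFA from -0.11 to 0.14. AGER in H358 ran from -0.51 to 0.69, and between the human lines AGER ran from -0.52 to 0.7 and HOPX from -2.48 to 0.1. With doxycycline AKAP5 ran from -0.26 to 0.23, CLIC5 from -0.66 to 0.39 and HOPX from -0.69 to 1.09. Between the drugs in 1027B Aqp5 ran from -0.19 to 0.04, Cav1 from -0.79 to 0.19, Pdpn from -0.32 to 0.87 and Vegfa from -0.29 to 0.05. Vegfa ran from -0.3 to 0.2 with trametinib and from -0.41 to 0.09 with MRTX1133 in 1027B, and from -0.53 to 0.02 with MRTX1133 in 3154 with Hnf4a. Aqp5 ran from -0.1 to 0.01 with MRTX1133 after deletion and from -0.26 to 0.25 in 3311.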
